A study of Mus musculus with 4 samples.

Results

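Adenylate cyclases are the enzymes that make cyclic AMP (cAMP) from ATP, and 8 genes of the membrane-bound family were followed here: Adcy1, Adcy2, Adcy3, Adcy5, Adcy6, Adcy7, Adcy8 and Adcy9. They were chosen by name and looked up by Entrez identifier in the table of counts, where all 8 were found among 12700 genes. The study sequenced polyA RNA from the brain of Ids-ko mice (Ids-/-), a model of mucopolysaccharidosis type II in which the lysosomal enzyme iduronate 2-sulfatase is missing, and of wild type (wt) littermates. All mice were C57BL/6 and 9 months old, and each library was a pool of 7 mice. There were 4 libraries and 1 per condition: CxH and CxWT, the cerebral cortex of Ids-ko and wt mice, and MH and MWT, the midbrain, diencephalon and hippocampus of the same Ids-ko and wt mice. According to the study's methods the second area (M) also held the striatum, and a pool carries no information on the spread between mice.

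Membrane-bound adenylate cyclases are switched on by the stimulatory G protein alpha subunit that receptors for dopamine, noradrenaline, adenosine and many peptides release, and the cAMP they make acts through protein kinase A, the exchange factors Epac, cyclic nucleotide-gated channels and the transcription factor CREB until phosphodiesterases degrade it. The members differ in what else controls them. Adcy1, Adcy8 and, under some conditions, Adcy3 are stimulated by calcium and calmodulin, Adcy2 and Adcy7 by G protein beta-gamma subunits, Adcy5 and Adcy6 are inhibited by calcium and by inhibitory G proteins, and Adcy9 responds poorly to the plant diterpene forskolin that activates the others. In the brain, Adcy1 and Adcy8 are known for their part in synaptic plasticity and memory, and Adcy5 as the main cyclase of the striatum.

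The libraries held 23475080 (CxH), 20266394 (CxWT), 22057807 (MH) and 16380080 (MWT) reads on genes. Counts were scaled to 1000000 aligned reads (RPM), and 3 reads corresponded to 0.0779 to 0.104 RPM. Ids, the targeted gene, had 135 RPM in CxH, 354 in CxWT, 368 in the library labelled MH and 155 in the library labelled MWT, so that in M more Ids was read from the library labelled knock-out than from that labelled wt. Marker genes also went against the labels of area. The summed level of 14 markers of cortical projection neurons was 2092 RPM in CxH and 1940 in MH, against 437 in CxWT and 376 in MWT. The summed level of the 15 midbrain and diencephalon markers in the table was 31.7 and 43.6 RPM in CxH and MH, against 524 and 463 in CxWT and MWT. En1, which specifies midbrain neurons, had 1 read in CxH and 0 in MH, and 6 and 3 of the 15 markers had at most 3 reads in these libraries, against 0 in the other 2. The 5 of 8 listed hippocampus markers in the table summed to 132, 108, 136 and 76.2 RPM across CxH, CxWT, MH and MWT. In the same order, 8 astrocyte markers summed to 3970, 2937, 3212 and 3660 RPM, and 8 endothelium markers to 212, 153, 163 and 187 RPM. The libraries therefore paired as CxH with MH and CxWT with MWT for area markers, and as CxH with MWT and CxWT with MH for Ids. Whether labels were exchanged between libraries was not tested. All libraries are named by their labels, and the effect of genotype cannot be told apart from a difference in the tissue that the libraries hold. In pooled tissue, fewer cells of a type and less RNA per cell cannot be told apart either.

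The 8 genes were compared with each other in RPM per kilobase of the longest coding transcript (RPKM). Their summed level was 180 and 161 RPKM in CxH and MH against 102 and 84.6 RPKM in CxWT and MWT. Adcy1 was the highest in every library, at 84.7, 31.1, 78.8 and 23.6 RPKM across CxH, CxWT, MH and MWT. Adcy5 and Adcy2 came next in every library. Adcy5 had 36.3, 19.3, 26.3 and 14.3 RPKM, and Adcy2 28.4, 16.5, 26.0 and 18.8 RPKM, so that Adcy2 was above Adcy5 in MWT, below it in CxH and CxWT, and within the counting interval of it in MH. Adcy7 was the lowest in every library, at 1.27, 3.54, 1.40 and 3.69 RPKM. In MWT its interval overlapped that of Adcy9 (4.00 RPKM).

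The middle of the order changed between libraries. It ran Adcy3 (9.68), Adcy9 (8.99), Adcy6 (6.74) and Adcy8 (4.37 RPKM) in CxH, where Adcy3 and Adcy9 overlapped, and Adcy9 (9.36), Adcy3 (8.32), Adcy6 (6.68) and Adcy8 (4.57 RPKM) in MH. It ran Adcy3 (10.4), Adcy8 (8.90), Adcy6 (6.70) and Adcy9 (5.57 RPKM) in CxWT, and Adcy8 (7.99), Adcy3 (7.28), Adcy6 (4.93) and Adcy9 (4.00 RPKM) in MWT, where Adcy8 and Adcy3 overlapped. Adcy8 was thus above Adcy6 and Adcy9 in CxWT and MWT and below both in CxH and MH. With the merged length of all exons in place of the longest transcript, Adcy3 changed place with a neighbour in CxH, CxWT and MH. The exons of Adcy3 are overlapped on the opposite strand by Cenpo, a gene of the kinetochore, and whether the counting used strand is not given in the sources used here.

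**Figure D1:**
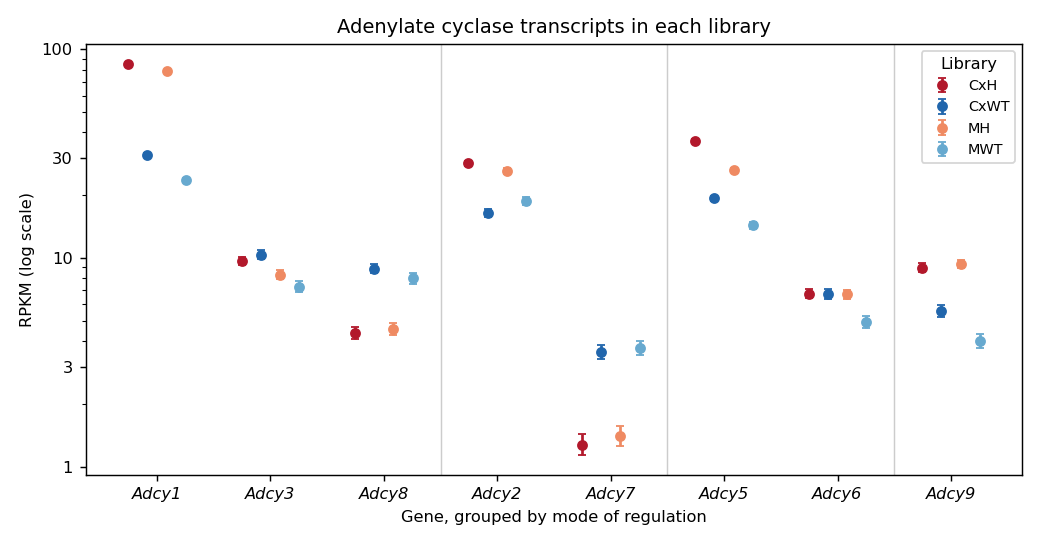
RPKM of each adenylate cyclase (log axis) in the 4 libraries, with genes grouped by mode of regulation and separated by vertical lines. Points are single libraries and bars are 95% Clopper-Pearson intervals, which cover counting error only. Adcy1 reaches 84.7 RPKM in CxH and 78.8 in MH against 31.1 and 23.6 in CxWT and MWT, and Adcy7 and Adcy8 have the opposite order.

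Reads of Adcy1 made up 65.9% of all reads on the 8 genes in CxH (95% Clopper-Pearson interval 65.5 to 66.3) and 68.0% in MH (67.6 to 68.4). In CxWT and MWT the share was 49.4% (48.8 to 50.04) and 46.9% (46.2 to 47.7). Per length, Adcy1 took 46.9% and 48.8% of the summed RPKM in CxH and MH, and 30.5% and 27.9% in CxWT and MWT. The share of Adcy8 was 2.42% and 2.83% in CxH and MH against 8.72% and 9.44% in CxWT and MWT, and that of Adcy7 was 0.706% and 0.869% against 3.47% and 4.36%. By mode of regulation, the 3 calcium-stimulated genes together took 54.7%, 49.4%, 56.8% and 46.0% in CxH, CxWT, MH and MWT, a narrower range than that of Adcy1, because Adcy3 and Adcy8 took smaller shares where Adcy1 took a larger one. The 2 calcium-inhibited genes took 20.4% to 25.5% in the 4 libraries. The 2 genes stimulated by beta-gamma subunits took 16.5%, 19.6%, 17.0% and 26.5% in CxH, CxWT, MH and MWT, and Adcy9 took 4.73% to 5.80%.

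**Figure D2:**
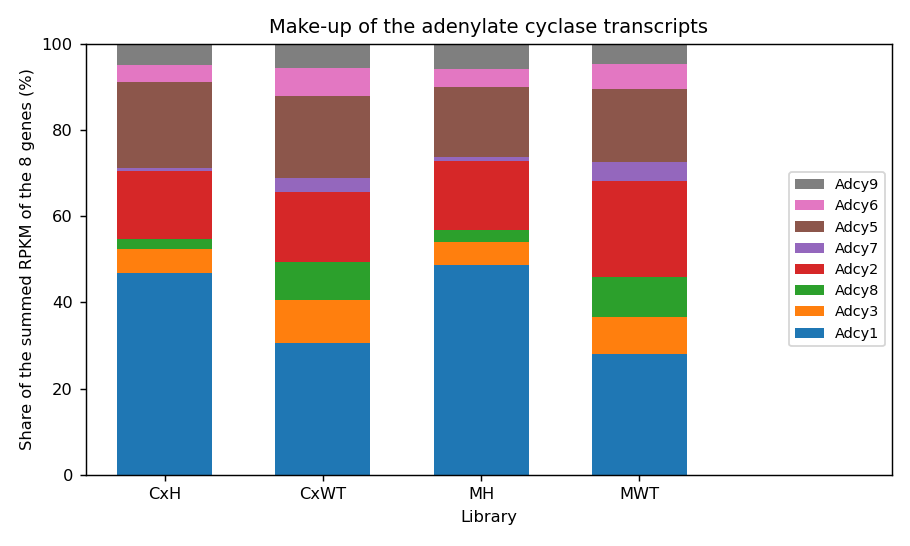
Share of each gene (%) in the summed RPKM of the 8 adenylate cyclases, with 1 stacked bar per library. Adcy1 fills 46.9% and 48.8% of the bars of CxH and MH and 30.5% and 27.9% of those of CxWT and MWT. The bands of Adcy3, Adcy6, Adcy7 and Adcy8 are wider in CxWT and MWT, and that of Adcy2 is widest in MWT.

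For the comparison of Ids-ko with wt, calls followed the criteria stated by the study, a p-value below 0.05 in a likelihood ratio test of Poisson counts together with a log2 ratio of RPM no smaller in size than 0.7. Such a test compares the reads of 2 libraries and not the conditions, and has no replicate check. Each ± is a standard error from counting. In CxH vs. CxWT, Adcy1, Adcy2 and Adcy5 rose and Adcy7 and Adcy8 fell, so 5 of 8 members were called. Of all 12700 genes 20.9% were called, 9.46% higher and 11.5% lower. In MH vs. MWT, Adcy1, Adcy5 and Adcy9 rose and Adcy7 and Adcy8 fell, again 5 of 8, and of all genes 25.0% were called, 12.3% higher and 12.7% lower. The median log2 ratio of the 8 members was 0.35 in Cx and 0.46 in M, and that of all genes was -0.091 and -0.064. Regardless of sign, the members had a median of 0.85 and 0.84 and all genes one of 0.34 and 0.40.

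Among the calcium-stimulated cyclases, Adcy1 (chromosome 11, 6963492 to 7078509, NCBI37/mm9) had 39967 and 36080 reads in CxH and MH against 12837 and 8392 in CxWT and MWT. In RPM these were 1038 and 966 against 382 and 290. CxH and MH were high and close to each other, and CxWT and MWT were low. In Cx the log2 ratio was 1.44 ± 0.015 and in M 1.74 ± 0.018, or 2.72-fold and 3.33-fold higher, and 97.5% and 98.1% of all genes had a lower ratio. The cortical markers, of which 11 of 14 were called higher and 0 lower in both comparisons, moved in the same direction, and their part in the result was not tested. Of the 5 hippocampus markers, 4 were called higher and 0 lower in M, and 0 higher and 1 lower in Cx. Their part was not tested either.

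Adcy8 (chromosome 15, 64530604 to 64753858), the other cyclase of this class with a known part in plasticity, had 22.0 and 22.99 RPM in CxH and MH against 44.8 and 40.2 RPM in CxWT and MWT. Its levels had the reverse order of those of Adcy1, low in CxH and MH and high in CxWT and MWT. In Cx the log2 ratio was -1.03 ± 0.062 and in M -0.81 ± 0.065. The midbrain and diencephalon markers, 14 of 15 of which were called lower in each comparison, and the 8 oligodendrocyte markers, with a summed level of 5017 and 5216 RPM in CxH and MH against 9480 and 7623 RPM in CxWT and MWT, moved in the same direction as Adcy8 and Adcy7, and their part was not tested. Adcy3 (chromosome 12, 4133103 to 4213525), the cyclase of olfactory and neuronal cilia, had 48.0 and 51.4 RPM in CxH and CxWT and 41.3 and 36.1 RPM in MH and MWT. The groups overlapped, and neither the Cx ratio of -0.098 ± 0.048 nor the M ratio of 0.19 ± 0.058 was called.

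Of the cyclases stimulated by beta-gamma subunits, Adcy7 (chromosome 8, 90796302 to 90853861), known for its expression in immune cells, had 300 and 321 reads in CxH and MH against 728 and 653 in CxWT and MWT, or 7.79 and 8.59 RPM against 21.7 and 22.6. CxH and MH were low and did not overlap with CxWT and MWT. In Cx the log2 ratio was -1.47 ± 0.099 and in M -1.39 ± 0.098, so that the gene was 2.78-fold and 2.63-fold higher in the library labelled wt. The summed level of 12 microglia markers was 788 and 436 RPM in CxH and CxWT and 500.4 and 645 RPM in MH and MWT. Of these markers 7 were called higher and 0 lower in Cx, and 0 higher and 3 lower in M, and their part in the result was not tested. Adcy2 (chromosome 13, 68758920 to 69138419) had 120 and 110 RPM in CxH and MH against 69.3 and 79.0 RPM, with CxH and MH above CxWT and MWT. Its log2 ratio of 0.79 ± 0.037 in Cx was called, and that of 0.47 ± 0.038 in M was not.

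Of the calcium-inhibited cyclases, Adcy5 (chromosome 16, 35154963 to 35305823) had 254 and 184 RPM in CxH and MH against 136 and 100.5 RPM in CxWT and MWT. The libraries labelled Ids-ko were above those labelled wt, and within each genotype the Cx library was above the M library. In Cx the log2 ratio was 0.91 ± 0.026 and in M 0.88 ± 0.032. The 12 markers of striatal medium spiny neurons, in which Adcy5 is the main cyclase, summed to 1234 and 1051 RPM in CxH and MH against 518 and 497 RPM in CxWT and MWT, with 8 of 12 called higher and 2 lower in each comparison. Their part in the result was not tested. Adcy6 (chromosome 15, 98420425 to 98438064), a close relative of Adcy5, had 40.5, 40.3, 40.2 and 29.6 RPM across CxH, CxWT, MH and MWT, with 3 libraries alike and MWT below them, and neither the Cx ratio of 0.0074 ± 0.054 nor the M ratio of 0.44 ± 0.062 was called.

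Adcy9 (chromosome 16, 4287529 to 4420498) had 44.7 and 46.5 RPM in CxH and MH against 27.7 and 19.9 RPM in CxWT and MWT. CxH and MH were above CxWT and MWT. Its log2 ratio of 1.23 ± 0.069 in M was called, and that of 0.69 ± 0.059 in Cx lay less than 1 standard error under the threshold of 0.7. With TMM or DESeq2 size factors as scaling it was called in Cx as well, at 0.78.

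**Figure D3:**
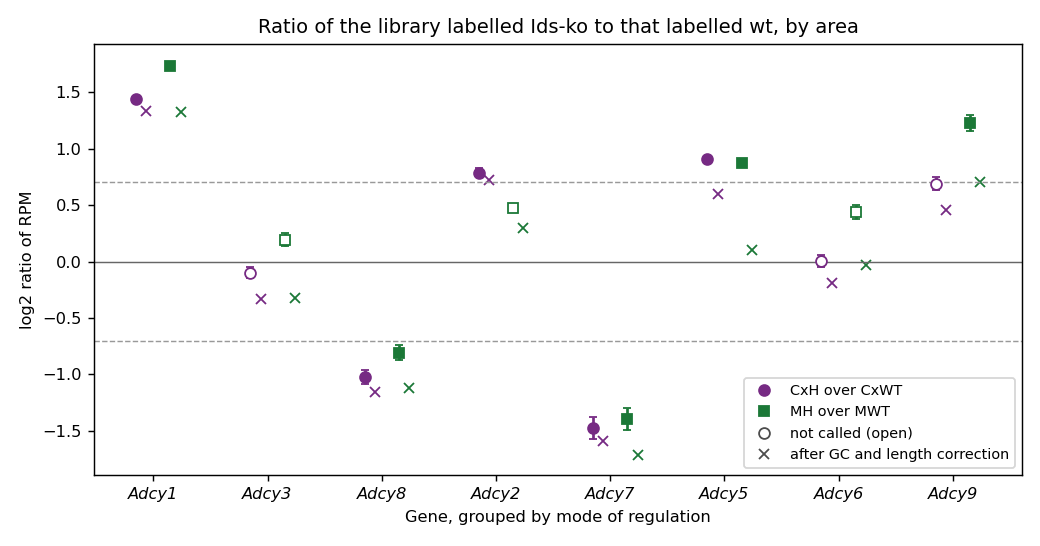
Log2 ratio of RPM of each adenylate cyclase, CxH over CxWT (circles) and MH over MWT (squares). Filled symbols were called and open ones were not, bars are standard errors from counting, dashed lines mark a log2 ratio of 0.7 in size, and crosses give the ratio once the trend with GC content and length is subtracted. Adcy1 lies at 1.44 and 1.74, Adcy7 at -1.47 and -1.39, and the crosses of Adcy5 fall to 0.59 and 0.10.

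Ratios moved with base composition. Across 10724 genes the Spearman correlation of the log2 ratio with the GC content of the transcript was 0.460 in Cx and 0.486 in M, and genes are not independent replicates. The transcripts of the 8 members held 52.2% (Adcy2) to 59.5% (Adcy5) GC, against a median of 50.4%. After the trend with GC content and length was subtracted, the ratio of Adcy5 was 0.59 in Cx and 0.10 in M and was no longer called in either. Adcy1 had 1.33 and 1.32, Adcy7 -1.59 and -1.72, and Adcy8 -1.15 and -1.12, each called in both. Adcy2 in Cx (0.72) and Adcy9 in M (0.71) were still called, both within 1 standard error of the threshold, and Adcy9 in Cx fell to 0.46. Of the called ratios, those of Adcy2 in Cx and Adcy8 in M did not pass when the exact test allowed pools to vary with a coefficient of variation of 0.2.

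Because Ids and the area markers pair the libraries differently, the members were also set out for the other pairs. CxH vs. MH, labelled as the areas of Ids-ko mice, differed in Ids (log2 ratio -1.44 ± 0.024). Of the area markers, 4 of 15 for midbrain and diencephalon were called in this pair, although their summed levels were low in both libraries, and 6 of 12 microglia markers were called, all higher in CxH. This pair gave no call among the 8 members, with log2 ratios from -0.14 (Adcy7) to 0.46 (Adcy5), and 3.50% of all genes were called. CxWT vs. MWT, labelled as the areas of wt mice, likewise differed in Ids (1.19 ± 0.025). Of the midbrain and diencephalon markers 2 of 15 were called, and 5 of 12 microglia markers were called, all lower in CxWT. The astrocyte gene Gfap had 603 and 555 RPM in CxH and MWT against 280 and 253 in CxWT and MH, so it and these microglia markers were higher in the libraries with less Ids, and the other 7 of 8 astrocyte markers were called in neither pair. This pair also gave none, with log2 ratios from -0.19 (Adcy2) to 0.51 (Adcy3), and 7.54% of all genes were called. CxH vs. MWT holds neither of the libraries with high Ids, and there Adcy1 (1.84 ± 0.017), Adcy5 (1.34 ± 0.031) and Adcy9 (1.17 ± 0.069) were called higher and Adcy7 (-1.53 ± 0.10) and Adcy8 (-0.87 ± 0.065) lower, while 30.7% of all genes were called. Here the Spearman correlation of the ratio with GC content was 0.686, and after the GC and length correction Adcy5 (0.43) and Adcy9 (0.53) were no longer called. MH vs. CxWT holds the libraries with high Ids. There Adcy1 (1.34 ± 0.015) and Adcy9 (0.75 ± 0.059) were called higher and Adcy7 (-1.33 ± 0.097) and Adcy8 (-0.96 ± 0.062) lower, while 15.3% of all genes were called. The call of Adcy9 was lost after the GC and length correction (0.62) and with a coefficient of variation of 0.2. Adcy1, Adcy7 and Adcy8 were thus called in the 4 pairs that set CxH or MH against CxWT or MWT, and the pairs share libraries. With a log2 threshold of 1, Adcy8 was called in CxH vs. CxWT and lost its call in the other 3 of these pairs, and Adcy1 and Adcy7 were called in all 4.

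The 4 libraries were also fitted together with edgeR's quasi-likelihood test, with genotype and area as terms, so that what differs between the areas in the ratio of genotypes is the error. The fit had 1 residual degree of freedom. For Ids-ko vs. wt, 6 of 8 members passed a Benjamini-Hochberg adjusted p-value of 0.05 over all genes, against 18.7% of the 12700 genes. Adcy1 (log2 fold change 1.59, edgeR adjusted p = 0.00102), Adcy9 (0.96, adjusted p = 0.0142), Adcy5 (0.89, adjusted p = 0.00868) and Adcy2 (0.63, adjusted p = 0.0395) were higher in Ids-ko. Adcy7 (-1.43, edgeR adjusted p = 0.00196) and Adcy8 (-0.92, adjusted p = 0.0104) were lower, each in both areas. Adcy3 (0.047, edgeR adjusted p = 0.873) and Adcy6 (0.22, adjusted p = 0.432) did not pass. Ids itself did not pass in this fit (-0.071, edgeR adjusted p = 0.942), so the term sets CxH and MH against CxWT and MWT and is not a check of the genotype. For Cx vs. M, edgeR called 0 of 8 members and 0% of all genes (615 genes had an unadjusted p under 0.05), and DESeq2 called 1 gene and no member. Cortical markers summed to 2092 and 437 RPM in CxH and CxWT and to 1940 and 376 RPM in MH and MWT. This term thus sets CxH and CxWT against MH and MWT, is not a check of the area, and cannot show whether cyclases differ between areas. The member nearest to a difference was Adcy5 (0.45, edgeR unadjusted p = 0.0236, adjusted p = 0.818).

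The region before the transcription start is shown for the members that were called in both comparisons and have an entry among the RefSeq promoters (GRCm38.p6). Entries were found for 6 of the 8 members, and Adcy6 and Adcy8 had none. The 250 bases before the start were searched on both strands for the cAMP response element TGACGTCA, the site of CREB, and for its core TGACG, which every full element contains. The core is in capitals. Adcy1 is at chr11:7063183-7063432, Adcy5 at chr16:35154614-35154863 and the first of 3 starts of Adcy7 at chr8:88282742-88282991, all on the plus strand.
Adcy1: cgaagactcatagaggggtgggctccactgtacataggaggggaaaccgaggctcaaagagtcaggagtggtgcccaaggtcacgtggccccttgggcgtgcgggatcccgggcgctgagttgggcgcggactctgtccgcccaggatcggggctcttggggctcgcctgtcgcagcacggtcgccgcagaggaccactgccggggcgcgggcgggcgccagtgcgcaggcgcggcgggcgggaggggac
Adcy5: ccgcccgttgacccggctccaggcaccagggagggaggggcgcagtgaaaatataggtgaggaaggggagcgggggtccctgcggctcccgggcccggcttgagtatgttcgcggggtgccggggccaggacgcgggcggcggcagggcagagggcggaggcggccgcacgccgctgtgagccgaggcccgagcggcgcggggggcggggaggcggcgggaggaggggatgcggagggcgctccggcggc
Adcy7: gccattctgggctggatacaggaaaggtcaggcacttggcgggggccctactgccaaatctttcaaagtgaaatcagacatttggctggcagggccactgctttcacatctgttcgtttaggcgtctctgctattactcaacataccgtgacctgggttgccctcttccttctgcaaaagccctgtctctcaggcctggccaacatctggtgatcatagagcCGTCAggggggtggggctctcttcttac

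The windows of Adcy1 and Adcy5, genes that were higher in CxH and MH, held 26 and 32 CpG dinucleotides at 71.2% and 78.0% GC. The 3 windows of Adcy7, the only lower member with an entry, held 5, 3 and 3 CpG at 54.0% to 56.4% GC. The median of 32851 promoter windows was 6 CpG and 52.4% GC. A link of CpG content with the direction of the ratios was not tested. Adcy2 and Adcy9, both higher by the 4-library fit, had 23 and 34 CpG, and the 2 windows of Adcy3, which was called in neither comparison, had 27 and 6 CpG. The core TGACG was present once in the first window of Adcy7 and once in that of Adcy9 and in none of the others, and in 17.8% of all windows. No member's window held the full element, which 1.55% of all windows did.

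Beyond the 8 members, 71 of 79 listed genes of cAMP signalling were in the table. Of these, 16 were called higher and 8 lower in CxH vs. CxWT (33.8% of 71, against 20.9% of all genes), and 18 higher and 7 lower in MH vs. MWT (35.2%, against 25.0%), with median log2 ratios of -0.019 and 0.20. The list holds 4 of the striatal markers (Drd1, Adora2a, Pde10a and Ppp1r1b). Calls of listed genes are for counts scaled by aligned reads, and were not set out after the GC and length correction or the other alternatives. Among the receptors coupled to the stimulatory G protein, 9 of 13 (69.2%) were called in each comparison, against 20.9% and 25.0% of all genes. In Cx 5 were higher and 4 lower, and in M 6 were higher and 3 lower. Vipr1 and Vipr2, both receptors of vasoactive intestinal peptide, moved in opposite directions, Vipr1 by 2.74 ± 0.14 in Cx and 3.00 ± 0.15 in M and Vipr2 by -2.54 ± 0.18 and -1.51 ± 0.15. Adora2a, the adenosine receptor of striatal neurons, rose by 2.001 ± 0.067 and 1.31 ± 0.078. Of the 7 G protein alpha subunits none was called in Cx, and in M Gnas, the stimulatory subunit, was called lower (-0.71 ± 0.016) and Gnaz, an inhibitory one, higher (0.86 ± 0.074). These 2 of 7 were 28.6%, near the 25.0% of all genes, and Gnas lay within 1 standard error of the threshold.

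Of the genes that make up the rest of the cyclase machinery, Adcy4, a further beta-gamma-stimulated cyclase, had 173, 84, 105 and 56 reads across CxH, CxWT, MH and MWT and rose by 0.85 ± 0.19 in Cx, while its M ratio of 0.54 ± 0.24 was not called. The difference between the areas was not tested. The cyclase-associated proteins Cap2 (0.92 ± 0.033) and Cap1 (0.76 ± 0.022) were called higher in Cx, and of these Cap2 also in M (0.87 ± 0.034), where the calmodulin gene Calm3 was called too (0.87 ± 0.014).

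Downstream of cAMP, 3 of 13 phosphodiesterases were called in Cx, or 23.1%, a share near that of all genes (20.9%). They were Pde2a (1.58 ± 0.024), Pde1a (1.27 ± 0.045) and Pde10a (1.15 ± 0.027), and all were called higher in M as well, at 1.86, 1.41 and 1.37, where Pde1c was called lower (-0.81 ± 0.10). Of 8 genes of protein kinase A, the inhibitor genes Pkig (1.21 ± 0.071) and Pkia (-0.90 ± 0.028) were called in Cx, or 25.0%, a share near that of all genes. Among 6 other effectors, Rapgef4, which codes for Epac2, rose by 1.23 ± 0.023 in Cx and 1.43 ± 0.025 in M, and the channel gene Hcn4 had log2 ratios of -2.44 ± 0.16 and -1.34 ± 0.16. Hcn3 was called lower in Cx at -0.99 ± 0.074. Of 10 anchoring proteins 2 were called in Cx, again a share near that of all genes. Akap5, of the postsynaptic density, was called higher (1.26 ± 0.047) and Akap12 lower (-0.93 ± 0.057), and both were called in M. Of 7 genes of the CREB arm 2 were called in Cx (28.6%, against 20.9% of all genes). Ppp1r1b, which codes for the striatal phosphoprotein DARPP-32, rose by 1.88 ± 0.030 and the CREB coactivator Crtc1 by 1.14 ± 0.030, and both were called in M, where Crebbp, of the CREB-binding protein, was called as well (1.14 ± 0.069).

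**Figure D4:**
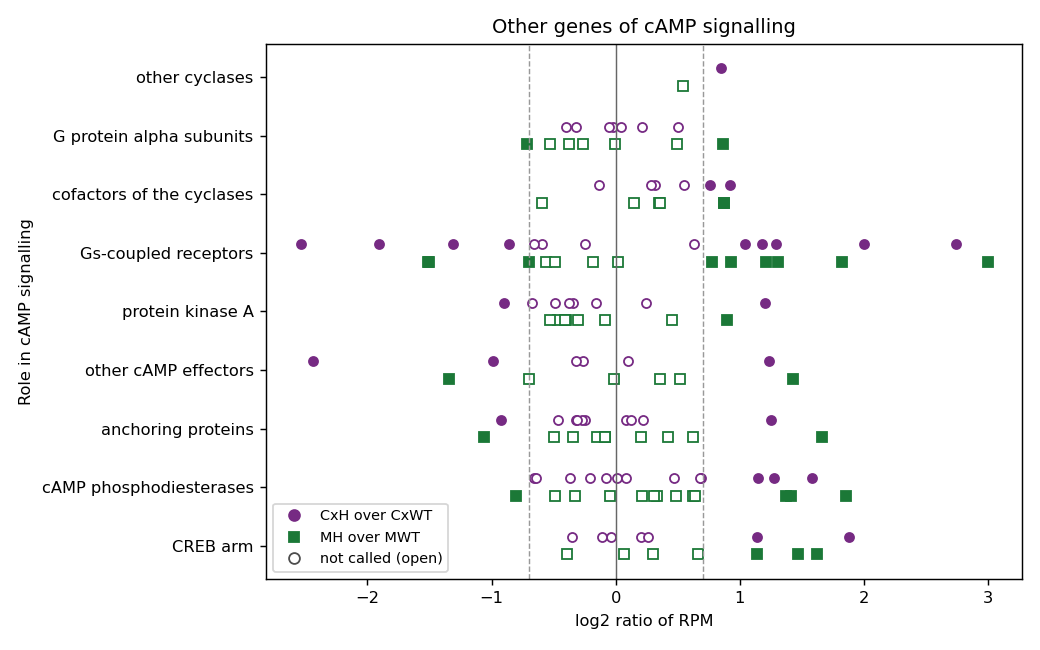
Log2 ratio of RPM of the 71 listed genes of cAMP signalling other than the 8 members, by role, for CxH over CxWT (circles) and MH over MWT (squares). Filled symbols were called, and dashed lines mark a log2 ratio of 0.7 in size. Receptors spread from -2.54 (Vipr2) to 3.00 (Vipr1), and most genes of protein kinase A and of the G protein alpha subunits lie between the dashed lines.

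The genes whose levels over the 4 libraries were most like those of a member were sought among 11003 genes for the members called in both comparisons, by the distance between log2 levels centred on their mean. Closest to Adcy1 were Foxp1, a forkhead transcription factor (distance 0.071), and Phactr1, a regulator of phosphatase and actin (0.093). Foxp1 had 1315, 412, 1142 and 258 reads across CxH, CxWT, MH and MWT. Closest to Adcy5 were Arf5 (0.067) and Adap1 (0.072), closest to Adcy7 Nipal2 (0.044) and Aldh1a7 (0.079), and closest to Adcy8 Ccdc136 (0.042) and Sema6d (0.062). With 4 libraries such a distance describes the order of these libraries and carries no test.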

How the data were processed

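RNA of 4 libraries, each a pool of 7 mice, was sequenced in a single run on a SOLiD 3 Plus instrument. The authors aligned the reads to NCBI37/mm9 with PASS, best hit only, without gaps, and deposited counts, which are reads of a single gene, for genes covered over most of their length, without normalization. The annotation they used is not given in the sources used here.

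Groups are those of the labels. RPM are counts per 1000000 aligned reads of a library, and a count of 0 was set to 1 in ratios. Entrez identifiers were matched to RefSeq symbols (12690 of 12700) and to GENCODE vM1 (12443), which gave positions, lengths and GC content. All 6 pairs of libraries were compared by the likelihood ratio test on Poisson counts, without replicate check. A fit of all 4 libraries used edgeR 4.0.16, with the aligned reads as library sizes. Depth was 16380080 to 23475080 reads on genes, and intervals (95% Clopper-Pearson) and standard errors cover counting error only. By the labels and the study's methods both areas came from the same mice, so there is 1 pool of mice per genotype, although Ids pairs the libraries otherwise. The genotype p-values of the 4-library fit test the mean ratio of the libraries labelled Ids-ko to those labelled wt. Their error is how that ratio differs between the libraries labelled Cx and M, and not a spread between independent pools.

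The members and all lists were chosen with earlier results of these data known. The rule named every member, Ids, for each role of cAMP signalling up to 3 called genes with the largest log2 ratio in CxH vs. CxWT, and the nearest 2 genes to each member called in both comparisons. Gnas, Gnaz, Pde1c, Calm3 and Crebbp, called in MH vs. MWT and not in CxH vs. CxWT, as well as Gfap, were chosen for naming after their values were seen.

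Alternatives were column totals, TMM and DESeq2 1.42.0 size factors as scaling, a minimum of 100 reads, a log2 threshold of 1, adjustment of p, an exact test that lets pools vary with a coefficient of variation of 0.2, a correction of the ratios for GC content and length (polynomials of degree 3), merged exon length, filterByExpr, a fit without the other factor, and DESeq2's Wald test. CxH vs. MWT, 1 of the 6 pairs, was taken as a comparison without the libraries CxWT and MH after the data were seen. The steps were tested on simulated data. R was version 4.3.3 and Python 3.11.15, with scipy 1.17.1, pandas 2.3.3, numpy 2.4.6 and matplotlib 3.10.9.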

Additional observations from a re-analysis of the deposited data

Results flagged for a closer look

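Adcy3 differed in sign between the 2 areas, with a Cx log2 ratio of -0.098 ± 0.048 and an M log2 ratio of 0.19 ± 0.058, a difference of 0.29 ± 0.075 (counting error). Neither ratio was called, and with 1 library per condition the difference was not tested. After correction for GC content and length both ratios were negative.

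Ids had a Cx log2 ratio of -1.39 ± 0.024 and an M log2 ratio of 1.24 ± 0.025, a difference of 2.63 ± 0.034 (counting error) that was not tested against replicates. The library labelled MH had 368 RPM, near the 354 of CxWT, and the library labelled MWT had 155, near the 135 of CxH, so both M libraries went against their labels. Among the 8 cyclases the largest such difference was 0.54 ± 0.091, for Adcy9.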

How the results depend on the processing

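The 6 members that passed in the fit of 4 libraries passed under column totals, TMM, DESeq2 size factors, filterByExpr, no term for area and DESeq2's Wald test. The GC and length correction was not run on that fit. With a log2 threshold of 1, the members called fell to 3 in CxH vs. CxWT and MH vs. MWT and to 2 in MH vs. CxWT. Calls over all genes fell too, from 1201 higher and 1457 lower to 691 and 710 in CxH vs. CxWT. They fell from 1556 and 1614 to 869 and 773 in MH vs. MWT. In MH vs. CxWT they fell from 814 and 1129 to 497 and 567. After the GC and length correction, the members called fell to 3 in CxH vs. MWT (Adcy1, Adcy7 and Adcy8). Calls over all genes there fell from 1980 higher and 1915 lower to 1014 and 1004. Uncalled values changed sign. Adcy6 (0.0074) had -0.0089 with column totals and -0.19 with the GC correction in CxH vs. CxWT. In CxH vs. MH (0.012) it had -0.034 with column totals, -0.0020 with TMM, -0.0095 with DESeq2 size factors and -0.065 with the GC correction. In MH vs. CxWT (-0.0049) it had 0.025 with column totals, and 0.10 with TMM and with DESeq2 size factors. Larger ratios changed sign with the GC correction. In MH vs. MWT, Adcy3 went from 0.19 to -0.33 and Adcy6 from 0.44 to -0.033. In CxWT vs. MWT, Adcy5 went from 0.43 to -0.16 and Adcy8 from 0.15 to -0.072. In CxH vs. MWT, Adcy3 went from 0.41 to -0.23, Adcy6 from 0.45 to -0.10 and Ids from -0.20 to 0.36. In the fit for Cx vs. M, Adcy2 (-0.030) had 0.0029 without the term for genotype and Adcy8 (0.047) -0.022 with column totals. The cause was not tested for the changes of scaling. TMM moved the median of all genes in MH vs. CxWT from -0.11 to -0.0029, where Adcy2 (0.77) was then called. In CxH vs. CxWT the calls over all genes were 1201 higher and 1457 lower, and 1447 and 1135 with TMM. Leaving out a library leaves no error term in the 4-library fit and was not run. If the labels hold, both areas came from the same mice, and the genotype term in the fit of Cx vs. M is also the block of mouse pool. Ids pairs the libraries otherwise, as CxH with MWT and CxWT with MH, and no fit with that pairing was run. The labels give no replicate numbers for another pairing. Depth limits Adcy7 most, with 300 reads in CxH.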
